A study of Mus musculus with 11 samples.

Results

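Every pluripotent array of the series was compared with both somatic source cells across all genes. The comparison takes in 11 of the 11 arrays: 9 of pluripotent cells, with 3 arrays for each of 3 kinds, and 2 of source cells, with 1 array each. The pluripotent kinds are induced stem cells made from ventricular myocytes (ViPSC), induced stem cells made from fibroblasts of the tail tip (TiPSC), and mouse embryonic stem cells that match them genetically (ESC). The source cells are the tail tip fibroblasts (TTF) and the ventricular cardiomyocytes (VM). The arrays were assigned by their titles. The background of all 5 kinds of cell mixes C57/Bl and BlackSwiss, and no further allele or agent is named for any of them. The pluripotent cells are described as undifferentiated and were grown with serum and LIF (leukaemia inhibitory factor) on irradiated mouse embryonic fibroblast feeders, which were removed by plating on uncoated dishes before RNA was taken. The source cells came from pups on postnatal day 1. The labels do not say how many lines, cultures or pups stand behind an array, so the spread behind each p value is that of these samples and may be technical, and the 2 somatic arrays are different tissues rather than replicates of one.

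Pluripotent cells keep themselves undifferentiated through a network of transcription factors around Oct4 (Pou5f1), Sox2 and Nanog, divide fast with a short G1 phase, and grow as epithelium-like colonies joined by E-cadherin. Fibroblasts and heart cells are mesodermal cells that lay down extracellular matrix, attach to it through integrins and divide slowly or not at all. The comparison asks which genes the 2 unlike source cells share against every pluripotent array. In bulk RNA, fewer cells of a type and less RNA per cell cannot be told apart.

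Levels are log2 expression values from RMA, a method that summarises the probes of a probe set and normalizes between arrays. They can be compared between arrays for 1 gene but not between genes. Each of 18193 genes was read from its brightest probe set, judged by the mean of the 11 arrays. A difference is the mean of TTF and VM minus the mean of the 9 pluripotent arrays, with its standard error (SE) from limma, and adjusted p values are limma's with Benjamini-Hochberg adjustment over the 18193 genes. At an adjusted p under 0.05, 3659 genes were higher in the source cells (20.1% of all genes) and 4496 were higher in the pluripotent cells (24.7%). With 44.8% of all genes called in either direction, a call alone does not single a gene out. The gap of a gene is used as well, which is the distance between the nearest arrays of the 2 classes. A gene is named apart when it passed limma and its gap was at least 1 log2 unit, a 2-fold distance on this scale. The sizes given for such genes are descriptions, since the gap uses the same values, and the adjusted p over all genes is the test.

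By limma and gap, 920 genes were apart with both source cells higher (5.06% of all genes) and 1343 with the pluripotent cells higher (7.38%). The median gap was 1.71 in the former set and 1.58 in the latter, but the far end was longer among the pluripotent genes. Of these, 90 had a gap of at least 4 and the largest gap was 9.76, against 26 genes and 5.98 among the somatic genes. The source cells were less alike where they were high: VM and TTF lay within 1 log2 unit of each other for 59.7% of the somatic genes, for 83.8% of the pluripotent genes and for 75.7% of all genes. Both source cells lay below the median level of all genes in 469 of the 1343 pluripotent genes (34.9%) and in 8131 of all 18193 genes. That held for 19 of the 920 somatic genes, which were chosen for levels above every pluripotent array in both source cells. RMA compresses differences near background, and its part in how alike the source cells were was not tested. VM exceeded TTF by at least 2 in 55 of the somatic genes, and TTF exceeded VM by as much in 90. Near the threshold, Pamr1, BC028528 and Prkaca lay just inside on the somatic side and Gpr155, Tut7 and Mtch1 just outside. Lad1, Nup214 and Wdr55 lay just inside on the pluripotent side and Tfe3, Pml and Sapcd2 just outside, each of these 12 genes with a gap that rounds to 1.

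**Figure D1:**
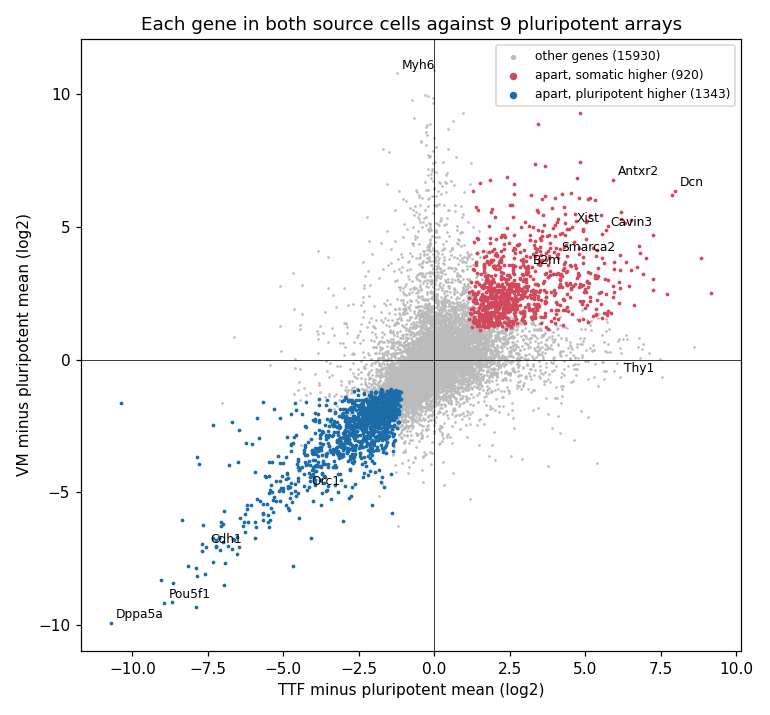
Each point is a gene, placed by its TTF level minus the mean of the 9 pluripotent arrays (horizontal, log2) and its VM level minus the same mean (vertical, log2). The 920 genes apart with somatic levels higher fill the upper right and the 1343 with pluripotent levels higher the lower left, and the other 15930 genes are grey, among them Myh6, high in VM alone, and Thy1, high in TTF alone.

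The labels were checked against markers of the cells. Over all 18193 genes, 29.0% were above every pluripotent array in VM and 28.7% in TTF. Pluripotency transcription factors had a mean level of 10.08 to 10.37 in the pluripotent arrays, 4.99 in TTF and 5.44 in VM. All 15 cardiomyocyte markers were above every pluripotent array in VM and none was in TTF. Of 20 fibroblast markers, 18 were above every pluripotent array in TTF and 14 in VM, while 4 were below every pluripotent array in VM. Over all genes, both source cells lay below every pluripotent array for 24.1%, and the share for VM alone was not counted. Of 16 endothelial markers, 16 were above every pluripotent array in VM and 1 in TTF. The VM array thus read above the pluripotent arrays for the endothelial markers and for most fibroblast markers, besides those of heart muscle. The median of VM minus the pluripotent mean was 4.53 over the endothelial markers and 1.04 over the fibroblast markers, where that of TTF was 5.68. Among the pluripotent arrays the mean fibroblast level ran from 6.52 to 7.36, and the array at 7.36 was TiPSC replicate 1. Feeder cells and tail fibroblasts share these markers, and the part of either in a pluripotent array was not tested. The levels of 2 markers chosen after their values were seen show the contrast: Myh6, the alpha heavy chain of heart myosin, read 14.90 in VM and 2.89 in TTF, and Thy1, a surface protein of fibroblasts, read 12.36 in TTF and 5.55 in VM. Neither gene is apart, because only 1 source cell carries it.

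**Figure D2:**
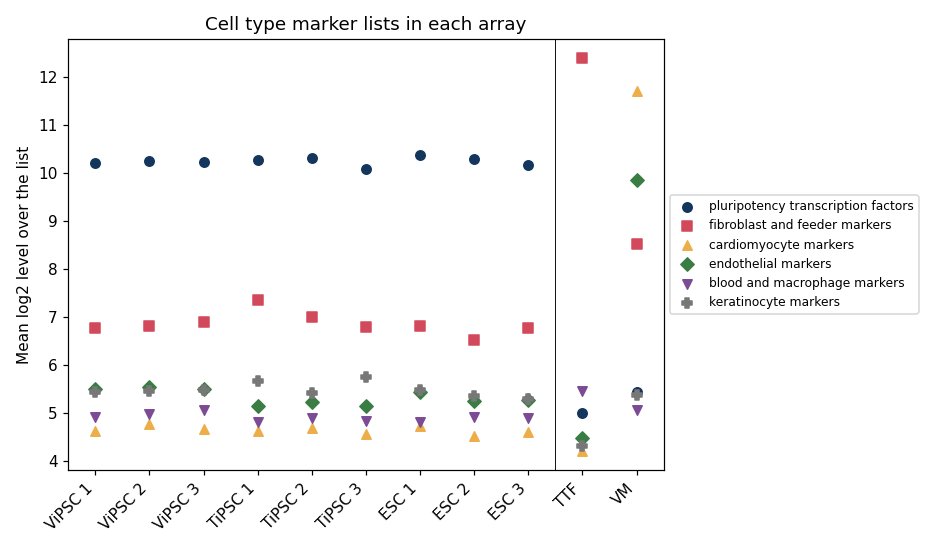
The mean log2 level over the genes of 6 marker lists (vertical) is shown for each of the 11 arrays (horizontal). Cardiomyocyte and endothelial markers stand high in VM alone at 11.71 and 9.85, fibroblast markers reach 12.39 in TTF and 8.52 in VM, and pluripotency factors are at 10.08 or above in the pluripotent arrays.

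Among the genes higher in both source cells, proteins of the extracellular matrix led. Dcn encodes decorin, a small proteoglycan that binds collagen fibrils. It read 13.26 in TTF and 11.62 in VM, and 4.99, 5.19 and 5.65 as the lowest, median and highest pluripotent level. The gap of 5.98 was the largest of the somatic genes, and the difference was 7.17 ± 0.31 (SE, adjusted p = 1.58e-08, limma). Postn, the matricellular protein periostin, read 14.08 and 12.39 in TTF and VM against 5.46, 6.19 and 7.10 (lowest, median and highest of the 9 pluripotent arrays). Its classes were separated by 5.29. Lama4, a laminin chain of basement membranes around muscle and vessels, was higher in VM (11.25) than in TTF (10.30), and both were far above the pluripotent range of 4.96 to 5.37. Fmod (fibromodulin) and Dpt (dermatopontin), which organise collagen fibrils, had gaps of 4.68 and 4.88, and the elastic-fibre protein Emilin2 had one of 4.80.

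The other leading somatic genes have varied roles. Antxr2, a receptor that binds collagen and laminin, read 9.93 in TTF and 10.78 in VM against a pluripotent range of 3.71 to 4.28, a difference of 6.35 ± 0.21 (SE, adjusted p = 1.89e-09, limma). Osmr, the receptor subunit for oncostatin M, read 11.09 and 9.92 against 4.59 to 5.02. S1pr3, a receptor for sphingosine 1-phosphate, read 11.39 and 10.77 against 4.58 to 5.89. The nearest arrays were as far apart for Filip1l, a filamin-interacting protein (gap 5.05), for Clec2d, a ligand of an inhibitory natural killer cell receptor (4.90), and for Arhgap31, which switches off Cdc42 and Rac1 (4.78). 2510009E07Rik, a gene without a functional name here, had the same level in both source cells (8.53 in TTF and 8.5 in VM) and a pluripotent range of only 3.50 to 3.76. The transcriptional cofactor Lbh, at 10.14 in VM and 0.14 lower in TTF, against 4.57 to 5.27, was likewise almost equal in the source cells.

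Among the genes higher in every pluripotent array, regulators and markers of the pluripotent state led. Dppa5a, an RNA-binding protein of early embryo and germ cells, read 14.42, 14.56 and 14.72 (lowest, median and highest) in the pluripotent arrays, 3.87 in TTF and 4.66 in VM. Its gap of 9.76 was the largest of all 18193 genes, with a difference of -10.32 ± 0.16 (SE, adjusted p = 6.85e-12, limma). Pou5f1 read 12.73, 12.91 and 13.05 against 3.94 in TTF and 3.73 in VM, a difference of -9.05 ± 0.11. Nanog ran from 12.33 to 13.15 against 3.95 and 3.53, and Sox2 from 11.92 to 12.46 against 4.23 and 2.81. Tdgf1 (Cripto, the co-receptor of Nodal) had a gap of 8.21 and L1td1, an RNA-binding protein derived from a retroelement, one of 8.08.

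The pluripotent arrays stayed close together for most of the remaining leaders. Fbxo15, an F-box gene whose promoter has served as a reporter of reprogramming, ran from 11.34 to 12.18, and Nr0b1 (Dax1), a nuclear receptor that binds Oct4, from 10.58 to 11.27. Sall4 and Tfcp2l1, transcription factors of the self-renewal network, had gaps of 6.91 and 6.43. Eras, a constitutively active Ras protein of embryonic stem cells, had one of 6.56. Mageb16 and Trap1a, X-linked genes otherwise known from germ cells and tumours, were more variable and highest in ESC replicates 2 and 3, with pluripotent ranges of 10.91 to 11.86 and 10.98 to 12.78. Both were far from TTF (3.01 and 4.06) and VM (3.41 and 3.56). Slc2a3, the high-affinity neuronal glucose transporter GLUT3, read 13.73 to 13.97 against 6.87 in TTF and 5.37 in VM.

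**Figure D3:**
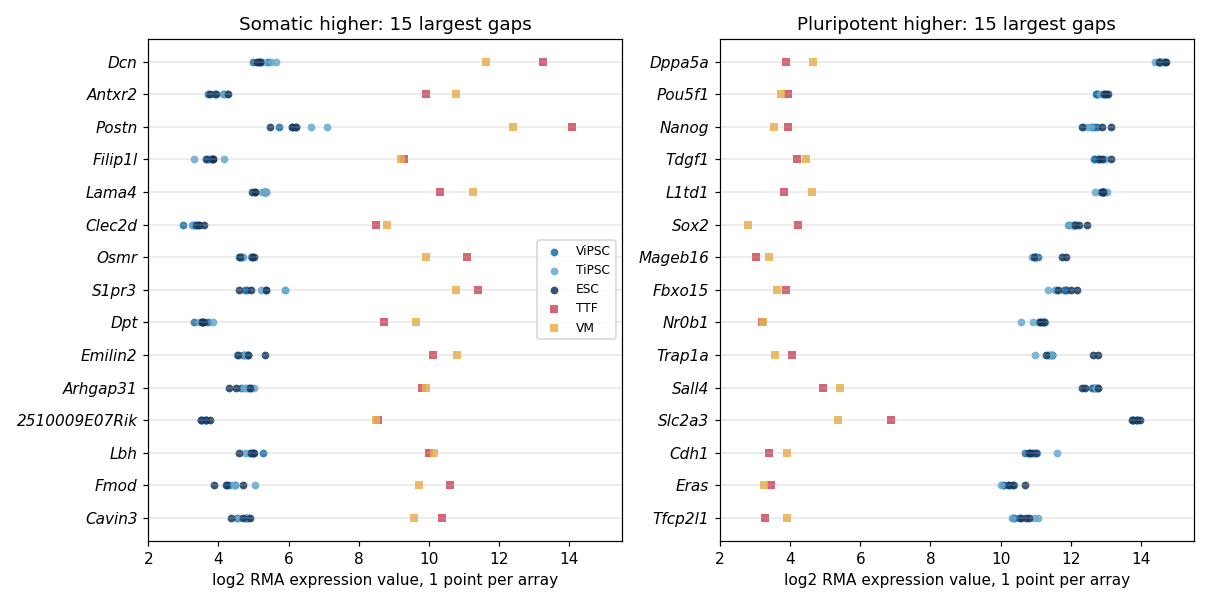
Log2 RMA level (horizontal) of the 15 genes with the largest gap in each direction, with 1 point per array (circles pluripotent, squares source cells). In the left panel both squares lie at least 4.67 to the right of every circle, and in the right panel at least 6.43 to the left of every circle.

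Further genes came from 39 lists, which together named 917 measured genes. Of these, 165 were apart with the source cells higher and 211 with the pluripotent cells higher. Counts of genes apart in a list are to be read against 5.06% (source cells higher) and 7.38% (pluripotent cells higher) of all genes. Counts of genes passing limma are to be read against 20.1% and 24.7%, in the same order. The median difference over all genes was -0.04. The lists were drawn up with results of these arrays known and carry no test of their own.

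**Figure D4:**
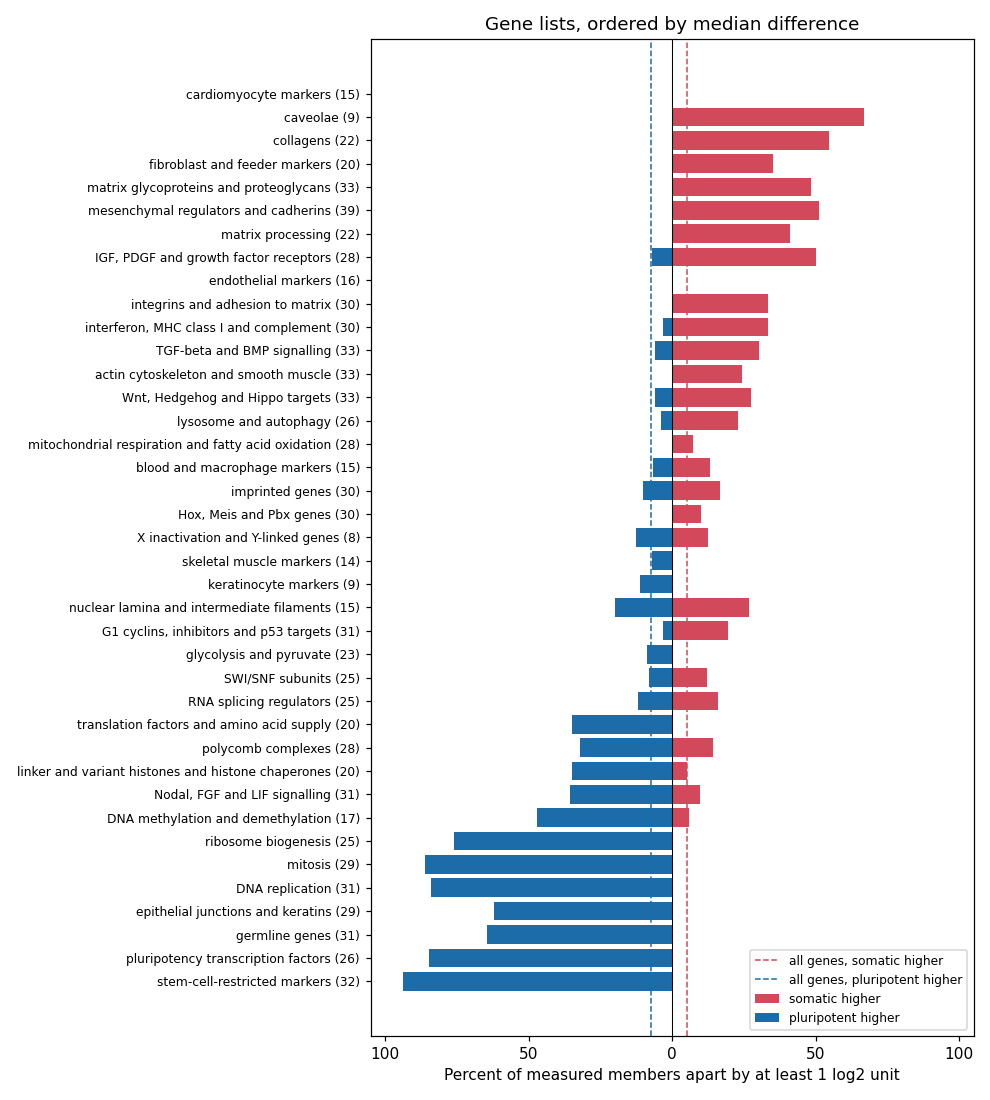
For each list, with its number of measured genes in brackets, bars show the percent of members apart with source cells higher (right, red) and with pluripotent cells higher (left, blue), ordered by median difference. Dashed lines mark the shares over all genes, 5.06% and 7.38%; the caveolae list reaches furthest right (6 of 9) and the stem-cell-restricted markers furthest left (30 of 32).

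Of 26 pluripotency transcription factors, 22 were apart with the pluripotent cells higher and 25 passed limma, with a median difference of -4.84. Those apart did not all resemble Pou5f1 in how far the source cells fell short. Esrrb, an orphan nuclear receptor, read 10.54 to 10.80 against 3.59 in TTF and 4.55 in VM, and the zinc finger gene Zfp42 (Rex1) 9.39 to 11.51 against 3.42 and 3.28. By contrast Klf4, a factor of the reprogramming cocktail, was closer between the classes, at 11.48 to 12.22 against 9.20 in TTF and 10.24 in VM, a difference of -2.15 ± 0.29 (SE, adjusted p = 8.03e-05, limma). Myc, from the same cocktail, ran the other way: 9.40 in TTF and higher than that in VM by 0.60, against 7.57 to 8.75, a difference of 1.56 ± 0.25 (adjusted p = 0.000388), with no overlap but a gap under 1. With array weights estimated per class the adjusted p of Klf4 became 0.0611 and that of Myc 0.19. Esrrb, Zfp42, Klf4 and Myc were named after their values were seen. Gbx2 and Foxd3 passed limma without being apart, and Gbx2 spread from 4.79 to 8.23 among the pluripotent arrays.

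The promoter of Nanog is shown because it held the composite SOX-OCT element through which Sox2 and Oct4 are known to act on it. The letters CATTGTNATGCAAA were searched on both strands of 18109 windows of 250 bases before a gene's start, and occurred in 2 of them (0.011%), overlapping windows of 2 Nanog starts. The window at chr6:122707239-122707488 (plus strand, RefSeq, GRCm38.p6) carries them on the other strand, in capitals.
Nanog: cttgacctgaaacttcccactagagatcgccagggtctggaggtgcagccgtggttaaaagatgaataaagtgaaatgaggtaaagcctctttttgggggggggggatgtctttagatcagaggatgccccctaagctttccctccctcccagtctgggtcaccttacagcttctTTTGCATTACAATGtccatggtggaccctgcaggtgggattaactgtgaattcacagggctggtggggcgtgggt
The window holds 3 CpG, 0.18 of the number its base composition would give.

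Of 32 stem-cell-restricted markers, 30 were apart with the pluripotent cells higher (median difference -6.12). The other two were Lin28b, at 2.83 to 3.27 in the pluripotent arrays and 3.11 and 2.79 in TTF and VM, and Pecam1. Pecam1, an adhesion molecule of embryonic stem cells and of endothelium, read 6.59 to 8.30 in the pluripotent arrays, 4.11 in TTF and 10.34 in VM. The germline list behaved similarly, with 20 of 31 genes apart and 27 passing limma, all higher in the pluripotent cells. Tfap2c, a transcription factor of germ cell precursors, read 9.81 to 10.51 against 3.45 in TTF and 3.38 in VM. Dppa3 (Stella), which protects the maternal genome from demethylation, read 10.54 to 11.65 against 4.11 and 4.27. Tex19.1 and Tdrd12, which restrain transposable elements, had gaps of 6.0 and 5.24. Within the pluripotent arrays the mean level of the germline list was lower in TiPSC (6.96 to 7.12) than in ViPSC (7.68 to 7.74) and ESC (7.33 to 8.11), while TTF and VM stood at 4.23 and 4.29. This spread among the pluripotent kinds is a description, with no test.

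Enzymes of DNA methylation were among the chromatin genes with the widest gaps. Of 17 genes, 8 were apart with the pluripotent cells higher and 1 with the source cells higher. Dnmt3l, the catalytically inactive partner of the de novo methyltransferases, ran from 11.67 to 12.28 against 5.49 in TTF and 4.69 in VM, a difference of -6.93 ± 0.19 (SE, adjusted p = 5.85e-10, limma). Dnmt3b, a de novo methyltransferase, spread from 10.07 to 11.96 but stayed clear of TTF (5.01) and VM (4.79). The maintenance enzyme Dnmt1 and its cofactor Uhrf1, named after their values were seen, had pluripotent medians of 11.12 and 11.63 against 9.77 and 8.87 in TTF and 9.24 and 8.24 in VM. Tet1, an oxidase that starts demethylation, was lower in both source cells, with a gap of 3.17. Tet2 was lower in TTF (7.16), while VM at 9.59 stood next to the pluripotent range of 9.67 to 10.17. Mbd2, a reader of methylated DNA, was the member that was higher in the source cells, at 9.72 and 9.91 against 7.14 to 7.73.

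Polycomb members went both ways. Of 28 genes, 9 were apart with the pluripotent cells higher and 4 with the source cells higher. The core of the complex that methylates histone H3 at lysine 27 was higher in the pluripotent cells. Ezh2, its methyltransferase, had a difference of -2.46 ± 0.15, Suz12 one of -2.61 ± 0.30 and Eed one of -2.24 ± 0.13 (SE; adjusted p = 1.66e-07, 2.59e-05 and 1.46e-07, limma). These 3 genes were named after their values were seen, and with array weights per class the adjusted p of Suz12 became 0.0756. Epop, an accessory subunit of that complex, read 7.78 to 8.98 against 3.03 in TTF and 3.72 in VM. Among subunits of the complex that ubiquitinates histone H2A, paralogs went opposite ways. Cbx7 (8.48 to 9.44 against 4.65 and 5.27), Phc1 (11.37 to 12.32 against 8.35 and 7.62) and Pcgf6 (10.37 to 10.69 against 7.66 in both source cells) were higher in the pluripotent arrays. Phc3 (8.63 in TTF and 8.72 in VM against 5.92 to 6.64), Phc2 and Bmi1 were higher in the source cells. Bmi1, a paralog of Pcgf6, read 9.35 and 8.98 against 5.72 to 7.30, and its adjusted p was 9.14e-05 in limma but 0.132 with array weights per class.

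Of 25 subunits of the SWI/SNF nucleosome remodeller, 3 were apart with the source cells higher (12%, against 5.06% of all genes) and 2 with the pluripotent cells higher (8%, against 7.38%). Smarca2 (Brm), 1 of its alternative ATPases, read 7.95 in TTF and 7.80 in VM against 3.52 to 4.18, a difference of 4.0 ± 0.17 (SE, adjusted p = 1.28e-08, limma). Smarcd3 (Baf60c), a subunit known from heart development, read 8.74 in TTF and 10.30 in VM against 5.61 to 6.53, so it was not limited to the heart cells. Smarcc2 was higher in the source cells as well, with a gap of 1.57. Actl6a and Smarcd1 were higher in the pluripotent cells, with gaps of 2.09 and 1.11. The mean level over the 25 subunits was 8.55 to 8.66 in the pluripotent arrays and 8.57 and 8.56 in TTF and VM, so the list as a whole did not stand apart from the pluripotent range.

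Of 20 linker histones, variant histones and chaperones, 7 were apart with the pluripotent cells higher, among them Hat1, a histone acetyltransferase (gap 2.66), and Chaf1b and Nasp, which carry new histones (2.60 and 2.04). The linker histone H1f2 went the other way, at 11.51 in TTF and 11.32 in VM against 6.99 to 8.28. The list of nuclear lamina and intermediate filament genes showed a like division. Lmna (lamin A) read 11.75 and 11.08 against 7.49 to 9.05, Syne1 and Sun2, which tie the nucleus to the cytoskeleton, had gaps of 3.29 and 2.71, and Vim (vimentin) one of 1.87. Lmnb1 and Lmnb2 (B-type lamins) and Lbr (the lamin B receptor) were higher in the pluripotent cells, with gaps of 1.09, 1.31 and 1.77. That made 4 genes apart one way and 3 the other among 15, with a median difference of -0.01 that turned to 0.03 after the arrays were quantile-normalized again. With array weights per class the adjusted p of Lmna became 0.0952.

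**Figure D5:**
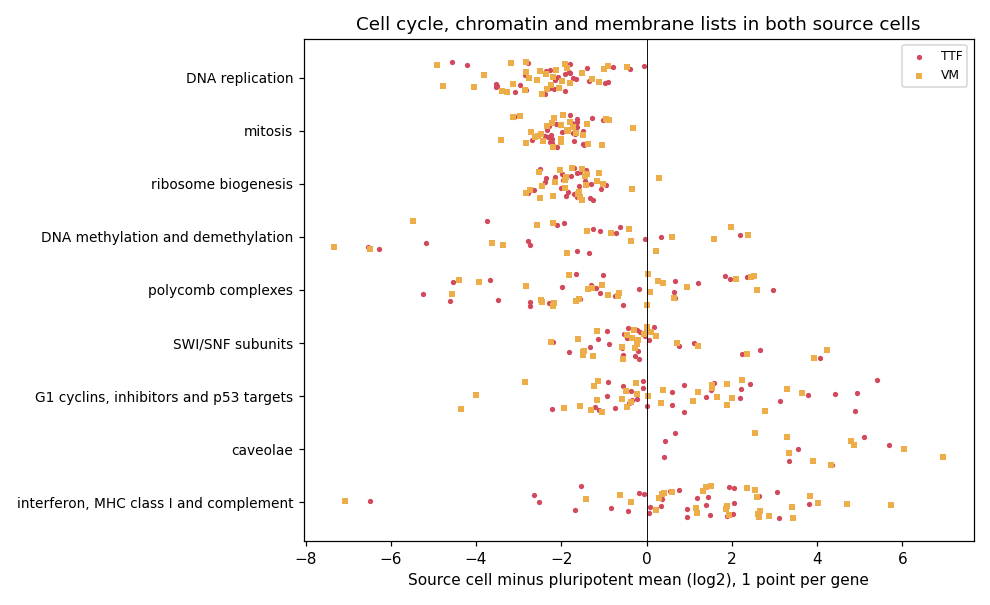
Each point is a gene of the list named at the left, placed by its level in TTF (circles) or VM (squares) minus the mean of the 9 pluripotent arrays (log2). Replication, mitosis and ribosome biogenesis genes lie left of 0 with few exceptions, caveolae genes lie right of it, and polycomb, SWI/SNF and G1 genes lie on both sides.

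Genes of DNA replication were lower in both source cells almost without exception: 30 of 31 passed limma and 26 were apart, all with the pluripotent cells higher, with a median difference of -2.25. Orc1, the largest subunit of the origin recognition complex, read 9.28, 9.44 and 9.50 (lowest, median and highest) against 5.20 in TTF and 4.50 in VM, a difference of -4.56 ± 0.14 (SE, adjusted p = 1.43e-09, limma). Cdc6, which loads the replicative helicase, read 9.75 to 10.60 against 6.58 and 5.31. The helicase subunit Mcm3 read 11.56 to 11.77 against 8.58 and 8.41, and Mcm10 had a gap of 3.26. TTF and VM had almost the same mean level of the list, 8.20 and 7.93 against 10.34 to 10.45 in the pluripotent arrays. Gins2 and Gins3 passed limma with gaps of 0.75 and 0.50.

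Promoters of replication genes are shown because factors of the E2F family are known to time their expression in the cell cycle. The letters TTTCCCGC or TTTGGCGC on either strand occurred in 6 of 31 windows of the replication list (19.4%), in 3.98% of the 1358 windows of the genes apart with the pluripotent cells higher, and in 1.93% of the 18109 windows. They occurred in 3 of 28 windows of the ribosome biogenesis list (10.7%), in 2 of 31 of the germline list (6.45%) and in none of 26 of the mitosis list. The 3 windows below (RefSeq, GRCm38.p6) are those of Cdc6 at chr11:98907901-98908150 (plus strand), Mcm5 at chr8:75109259-75109508 (plus strand) and Mcm6 at chr1:128359706-128359955 (minus strand), with the matching letters in capitals.
Cdc6: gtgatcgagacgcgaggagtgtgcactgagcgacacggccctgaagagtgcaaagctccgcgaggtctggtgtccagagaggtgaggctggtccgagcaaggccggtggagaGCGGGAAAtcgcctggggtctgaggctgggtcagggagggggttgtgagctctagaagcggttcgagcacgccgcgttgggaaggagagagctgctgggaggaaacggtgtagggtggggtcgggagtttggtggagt
Mcm5: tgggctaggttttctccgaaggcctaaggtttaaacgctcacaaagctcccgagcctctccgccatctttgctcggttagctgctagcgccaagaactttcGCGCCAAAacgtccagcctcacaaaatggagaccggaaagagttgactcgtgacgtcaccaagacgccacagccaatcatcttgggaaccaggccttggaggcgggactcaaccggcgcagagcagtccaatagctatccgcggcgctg
Mcm6: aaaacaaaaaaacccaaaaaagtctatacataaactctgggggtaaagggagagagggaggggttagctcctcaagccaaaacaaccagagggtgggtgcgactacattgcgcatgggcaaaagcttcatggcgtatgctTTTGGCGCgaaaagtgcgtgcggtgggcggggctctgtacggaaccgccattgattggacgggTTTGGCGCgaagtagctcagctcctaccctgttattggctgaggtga
Mcm5 and Mcm6, chosen for these letters, encode further helicase subunits and had gaps of 2.73 and 2.05. A match describes the letters only and was not tested as a binding site.

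Windows were found for 80.5% of the genes apart with the pluripotent cells higher, and their median ratio of observed to expected CpG was 0.73, against 0.61 over all windows. A ratio of 0.6 or more held for 65.7% of their windows and for 51.4% of all. The letters CCGGAAG, bound by ETS factors, occurred in 14.9% against 10.1%, CCAAT in 39.1% against 34.7%, and TGANTCA, the AP-1 element, in 3.09% against 5.62%. The octamer ATGCAAAT, which overlaps the SOX-OCT letters, occurred in 1.25% against 1.3%. The other letters searched were GGGTGTGGC of KLF factors (1.33% against 1.40%), TCAAGGTCA of ESRRB (0.0736% against 0.32%), the E-box CACGTG (8.84% against 7.38%), the palindromic NRF1 element (1.47% against 1.23%), GGGCGG of Sp factors (56.2% against 48.3%), TATAAA (6.55% against 8.81%) and GGAATG of TEAD factors (10.9% against 11.5%), with the CArG box (0.736% against 1.23%). These shares are descriptions with no test, and they cannot show whether a trait is particular to the pluripotent genes. For the genes apart with the source cells higher, 79.2% had a window, under the 80% set for such a check, so it is void for them. The windows of all genes cover 79.4% of the genes.

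Genes of mitosis behaved like those of replication. All 29 passed limma with the pluripotent cells higher and 25 were apart, with a median difference of -2.02. Ect2, which drives cytokinesis, read 9.13 to 9.72 against 6.34 in TTF and 6.33 in VM. Espl1 (separase), Bub1 and Ttk, of chromosome separation and its checkpoint, had gaps of 2.70, 2.65 and 2.26. Cenpa, the centromeric histone, was the nearest to an overlap: VM at 11.23 lay just below the pluripotent range of 11.33 to 11.72, while TTF stood at 9.22.

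Regulators of G1 did not move as a group. Of 31 genes, 6 were apart with the source cells higher and 1, Ccne1 (cyclin E1), with the pluripotent cells higher, and the median difference was -0.04, with -0.23 for VM alone and 0.59 for TTF alone. Cdkn2c, an inhibitor of the cyclin D kinases, read 10.75 in TTF and 9.44 in VM against only 5.70 to 5.97, a difference of 4.29 ± 0.24 (SE, adjusted p = 8.54e-08, limma). Cdkn1a (p21), the cell cycle inhibitor induced by p53 and named after its values were seen, read 12.20 and 12.02 against 9.75 to 10.40. Ccnd2 (cyclin D2) read 13.23 and 11.12 against 8.02 to 8.96, and Fas, a death receptor, had a gap of 1.94. Cdkn2b was higher in TTF alone, at 10.14 against 5.48 in VM and 5.32 to 6.26 in the pluripotent arrays, with an adjusted p of 0.0523.

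Ribosome biogenesis also had a nearly uniform direction, with 24 of 25 genes passing limma and 19 apart, all higher in the pluripotent cells (median difference -1.73). Dkc1 and Nhp2, which modify ribosomal RNA and also belong to telomerase, had gaps of 2.65 and 2.40. Polr1b, a subunit of RNA polymerase I, read 9.45 to 9.93 against 7.32 in TTF and 7.57 in VM. Of 20 genes of translation and amino acid supply, 7 were apart with the pluripotent cells higher. Gldc, of the glycine cleavage system, read 10.07 to 10.88 against 4.72 and 4.32, a difference of -6.12 ± 0.20 (SE, adjusted p = 1.86e-09, limma). The arginine transporter Slc7a3 and the folate enzyme Shmt1 followed with gaps of 4.23 and 2.70.

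Genes of energy metabolism differed between the source cells. Of 23 genes of glycolysis, Slc2a3 and Aldoc were apart with the pluripotent cells higher, a share of 8.7% beside 7.38% of all genes, and the adjusted p of Aldoc was 0.121 with array weights per class. In the same list, muscle forms such as Eno3 and Pgam2 were high in VM alone (13.57 and 12.69 against 7.07 and 6.09 in TTF). Of 28 mitochondrial and fatty acid oxidation genes, 14 passed limma with the source cells higher, but only Acadvl and Acadl, dehydrogenases of fatty acid oxidation, were apart. Acadvl read 12.97 in VM and 10.25 in TTF against 7.78 to 9.12. The adjusted p of Acadl was 0.00109 in limma and 0.113 over the means of the 5 kinds of cell, and that of Acadvl 0.000798 and 0.0756. Over the list, the median of VM minus the pluripotent mean was 1.98 and that of TTF was -0.11. Of 26 lysosome and autophagy genes, 6 were apart with the source cells higher, including Ctsb, Lamp2 and Gabarapl1 with gaps of 1.25, 1.23 and 1.55. Ctsk, a collagen-degrading protease, was much higher in TTF (10.14) than in VM (6.73), both above 3.78 to 4.56, and its adjusted p became 0.0536 over the means of the 5 kinds of cell.

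Of 22 collagens, the fibre and network proteins of the matrix, 18 passed limma with the source cells higher and 12 were apart in that direction. Col18a1 of basement membranes, named after its values were seen, passed limma in the opposite direction (8.84 in TTF and 9.91 in VM against a pluripotent median of 10.39, adjusted p = 0.00149). The median difference was 3.58, and it was 4.60 with TTF alone and 2.29 with VM alone. In VM, 3 collagens lay below every pluripotent array, where 24.1% of all genes did so in both source cells. Col3a1, a fibrillar collagen of soft tissue, read 14.38 in TTF and 13.12 in VM against 7.19, 7.77 and 8.73 (lowest, median and highest). Its difference was 5.88 ± 0.37 (SE, adjusted p = 2.39e-07, limma). Col4a5 and Col4a2 of the basement membrane were higher in VM (9.15 and 12.92) than in TTF (8.62 and 11.81), and Col1a1 of fibrils was higher in TTF (13.33 against 10.50). All 4 were at least 3.19 above the nearest pluripotent array. Col5a1 and Col11a1 passed limma with gaps of 0.81 and 0.66, since VM lay close to the pluripotent range.

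The wider matrix went the same way, with 16 of 33 glycoproteins and proteoglycans and 9 of 22 processing genes apart, all with the source cells higher. Among processing enzymes, Adamts1, which cleaves proteoglycans, read 11.43 in TTF and 10.14 in VM against 4.83 to 6.89, although its adjusted p of 2.01e-05 in limma became 0.0514 with array weights per class. Serpinh1, the collagen chaperone, read 13.42 and 12.33 against 8.20 to 9.65. Bmp1, which trims procollagen, and the gelatinase Mmp2 had gaps of 2.44 and 2.42. TTF stood above VM in the mean of these lists, at 10.81 and 11.40 against 9.24 and 8.64, with pluripotent arrays at 6.59 to 7.12 and 7.22 to 7.63. Adamts5 and Loxl1 were high in TTF (11.21 and 12.18) and near the pluripotent range in VM (4.90 and 7.84). The mean fibroblast marker level was 12.39 in TTF and 8.52 in VM, and the part of fibroblasts within the VM sample in these genes was not tested.

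Adhesion to matrix and the membrane followed. Of 30 integrin and adhesion genes, 25 passed limma with the source cells higher and 10 were apart. Cd44, the hyaluronan receptor, read 11.87 and 10.36 in TTF and VM against 6.41 to 7.83, Sgcb, a sarcoglycan that links dystrophin to the membrane, had a gap of 2.70, and Ilk, the integrin-linked kinase, one of 1.71. Caveolae, the small membrane pits coated by caveolins and cavins, had the highest share of any list in this direction, with all 9 genes passing limma and 6 apart. Cavin3 read 10.38 and 9.57 against 4.35 to 4.89, and Cav1 was equal in the source cells (12.99 in TTF and 12.95 in VM) and ran from 7.99 to 9.49 in the pluripotent arrays. The muscle forms Cav3 and Cavin4 were high in VM (10.55 and 10.35) and near the pluripotent range in TTF. Of 33 actin and smooth muscle genes, 8 were apart, led by the myosin light chain Myl9 (11.96 and 12.46 against 6.73 to 8.40) and by Flnc (filamin C, gap 2.37), and Acta2, smooth muscle actin, read 14.30 and 12.41 against 9.53 to 10.47.

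Epithelial and mesenchymal genes lay on opposite sides. Of 29 epithelial junction and keratin genes, 18 were apart, all with the pluripotent cells higher. Cdh1 (E-cadherin) read 10.70, 10.92 and 11.61 (lowest, median and highest) against 3.40 in TTF and 3.90 in VM, a difference of -7.32 ± 0.20 (SE, adjusted p = 7.52e-10, limma). Cldn4, Epcam and the splicing factor Esrp1, all of epithelia, had gaps of 6.16, 6.14 and 5.60. Dsg2, a desmosomal cadherin of epithelium and of heart muscle, was at 10.50 in VM, above the pluripotent range of 9.20 to 10.10, and at 2.99 in TTF. Of 39 mesenchymal regulators and cadherins, 20 were apart, all with the source cells higher. Cdh2 (N-cadherin) read 10.67 and 11.47 against 5.94 to 6.82, and Zeb2, a repressor of E-cadherin, 7.46 and 7.19 against 3.11 to 3.54, a difference of 3.97 ± 0.12. Nfix and Meox1, transcription factors of mesoderm derivatives, had gaps of 3.16 and 3.02. Prrx1, of limb mesenchyme, was shared less, at 11.34 in TTF and 6.72 in VM against 5.21 to 6.40.

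Positional genes were mostly a matter of 1 source cell. Of 30 Hox, Meis and Pbx genes, none of the Hox genes was apart, and Hoxc10 and Hoxb9 were high in TTF (8.20 and 9.34) but at 3.11 and 4.29 in VM. The cofactors Meis1, Meis2 and Pbx3 were apart, with Meis1 almost equal in TTF (7.48) and VM (7.45) against 4.03 to 4.81. The adjusted p of Pbx3 was 0.000216 in limma and 0.189 with array weights per class.

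Signalling genes divided by pathway. Of 33 genes of TGF-beta and BMP signalling, 10 were apart with the source cells higher and 2, Id4 and Tgif1, with the pluripotent cells higher. With array weights per class the adjusted p of Id4 was 0.058. Tgfbr2, the receptor that binds TGF-beta, read 12.69 in TTF and 9.50 in VM against 5.15 to 6.20, a difference of 5.43 ± 0.59 (SE, adjusted p = 1.61e-05, limma). Tgfbi, a matrix protein induced by TGF-beta, and the co-receptor Tgfbr3 had gaps of 3.57 and 2.49. Of 31 genes of Nodal, FGF and LIF signalling, 11 were apart with the pluripotent cells higher. Fgf4, the autocrine growth factor of embryonic stem cells, read 10.15 to 11.44 against 3.66 and 3.87, and Gdf3 and the Nodal inhibitor Lefty2 had gaps of 5.98 and 4.95. The 3 members apart in the other direction were Kitl (stem cell factor, gap 3.01), Il6st (gp130, the shared LIF receptor subunit) and its effector Stat3. Stat3 read 10.97 in TTF and 11.26 in VM against 8.79 to 9.49.

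Growth factor and cytokine receptors and their binding proteins were higher in both source cells for 14 of 28 genes. Besides Osmr, Il1r1 and Ghr, receptors for interleukin 1 and growth hormone, had gaps of 3.53 and 2.76, and Igfbp7, a secreted binding protein, one of 3.95. Ghr read 10.14 in both source cells but spread from 4.83 to 7.37 among the pluripotent arrays, and its adjusted p of 0.000143 became 0.165 with array weights per class. Igfbp2 and Erbb3 were higher in the pluripotent cells, Igfbp2 at 12.42 to 13.02 against 8.14 in TTF and 5.04 in VM, but the adjusted p of Erbb3 was 0.0588 with array weights per class. Of 33 Wnt, Hedgehog and Hippo genes, 9 were apart with the source cells higher. They included Wwtr1 (Taz), a Hippo effector, with a gap of 2.01, and Ankrd1, one of its targets, at 8.02 in TTF and 12.06 in VM against 4.24 to 5.08. The Hedgehog mediator Gli1 and the receptor Ptch1 were higher in the pluripotent cells, with gaps of 2.39 and 1.10, and the adjusted p of Ptch1 was 0.0762 with array weights per class. Gas1, a Hedgehog co-receptor, was higher in the source cells (12.41 and 9.25 against 6.74 to 7.27), with an adjusted p of 0.000138 that became 0.0587 over the means of the 5 kinds of cell.

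Genes of the interferon response and antigen presentation were higher in both source cells for 10 of 30, with 18 passing limma. B2m, the light chain of MHC class I, read 12.72 in TTF and 13.04 in VM against 9.31 to 10.16, a difference of 3.27 ± 0.20 (SE, adjusted p = 1.89e-07, limma). H2-D1, an MHC heavy chain named after its values were seen, read 10.85 and 11.82 against 8.79 to 9.16. Sequence shared with other MHC genes can add to that probe set. Ifit2 and Ifit3, interferon-induced proteins, had gaps of 3.49 and 1.94, and Ifih1, a sensor of viral RNA, one of 2.49. Ifitm1 stood against its list, at 12.41 to 12.92 in the pluripotent arrays and 6.24 and 5.65 in TTF and VM. Blood markers were at a mean of 5.45 in TTF and 5.06 in VM against 4.80 to 5.06 in the pluripotent arrays, and their part in the immune genes was not tested. Of 15 blood and macrophage markers, 8 passed limma with the source cells higher and 3 with the pluripotent cells higher. Over all genes, 20.1% and 24.7% did so. C1qa and Tyrobp, of macrophages, were apart with the source cells higher (gaps of 1.51 and 1.18). Those 2 made up 13.3% of the list, beside 5.06% of all genes. Laptm5, of blood cells, was apart with the pluripotent cells higher (gap 2.32), a share of 6.67% beside 7.38%. Cd68 had a difference of -2.3 without being apart.

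RNA splicing regulators lay on both sides, with 4 of 25 apart with the source cells higher and 3 with the pluripotent cells higher. These are shares of 16% and 12%, beside 5.06% and 7.38% of all genes. Mbnl2 and Mbnl1, which promote splice forms of differentiated tissue, read 11.58 and 10.72 in TTF and 11.84 and 11.49 in VM, against 7.85 to 8.72 and 7.87 to 8.47. Rbfox1 and Celf2 followed with gaps of 1.58 and 1.49. Esrp1, Esrp2 and Srsf3 were higher in the pluripotent cells, with an adjusted p of 0.0537 for Esrp2 when arrays were weighted per class. Rbm20 and Rbm24, splicing factors of heart muscle, were high in VM alone (11.10 and 7.93 against 4.12 and 3.69 in TTF).

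Of 30 imprinted genes, 5 were apart with the source cells higher and 3 with the pluripotent cells higher. Besides Dcn, Grb10 and Igf2r, which restrain growth factor signalling, and the G protein gene Gnas were higher in the source cells. Grb10 read 12.34 and 12.46 against 7.61 to 10.01. With array weights per class the adjusted p was 0.198 for Grb10, 0.058 for Igf2r and 0.0918 for Gnas. Phlda2, a growth-restraining gene of placenta, was higher in the pluripotent cells (8.95 to 11.07 against 4.42 and 5.06). The noncoding RNAs Meg3 and Rian of the Dlk1-Dio3 cluster were not apart, because the 3 ESC arrays reached 8.80 to 10.61 and 8.49 to 10.16 and overlapped VM at 9.62 and 8.52. In TTF they read 12.64 and 12.27, and in the 6 arrays of ViPSC and TiPSC they stayed at or below 7.41 and 5.94.

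Genes of the X chromosome were apart with the pluripotent cells higher for 71 of 617 (11.5%), against 5.44% to 8.69% on the 19 autosomes, and with the source cells higher for 23 (3.73%), against 3.84% to 7.12%. Xist, the RNA that coats the inactive X of female cells, read 11.06 in TTF and 11.50 in VM against 5.88, 6.24 and 8.06 (lowest, median and highest), a difference of 4.78 ± 0.48 (SE, adjusted p = 9.27e-06, limma). Eif2s3y, on the Y chromosome, read 8.39 and 8.28 in the same source arrays, 8.28 to 9.20 in ViPSC, 5.11 to 8.80 in TiPSC and 3.73 to 4.22 in ESC. Both RNAs were thus present in both source cells, and the number of X chromosomes in each sample was not tested. Rlim, an X-linked activator of Xist, was higher in the pluripotent cells, with a gap of 1.37.

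The same genes were read a second time where the array carried other probe sets for them. Here a probe set counts as apart by a gap of at least 1 alone, without a limma call. Of 1267 other probe sets of the somatic genes, 1157 (91.3%) differed in the same direction and 464 (36.6%) were apart, against 3.99% of 16752 other probe sets of all genes. Of 1349 other probe sets of the pluripotent genes, 1256 (93.1%) differed in the same direction and 508 (37.7%) were apart, against 4.26%. In 1 case, Ssh1, another probe set was apart the opposite way, at -2.27. Since these probe sets read the same RNA on the same arrays, they are not replicates of the comparison.

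The arrays that set the gap were not spread evenly. For the genes apart with the source cells higher, the nearest pluripotent array was TiPSC replicate 1 for 207 and TiPSC replicate 3 for 170 of 920 genes. For the genes apart with the pluripotent cells higher, it was ESC replicate 3 for 317 of 1343. The nearest source cell was TTF for 435 and VM for 485 of the somatic genes, and TTF for 743 and VM for 600 of the pluripotent genes. Without TiPSC replicate 1, 938 somatic genes were apart, and without ESC replicate 3, 1396 pluripotent genes.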

How the data were processed

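The labels describe 1 Affymetrix mouse expression array for the total RNA of each of 11 samples. The deposited values are log2 expression values that the authors made with RMA, per the submitters' processing notes. The RMA version and software are not given in the sources used here. No detection calls were used, and RMA compresses differences near background. Of 45101 probe sets, 64 controls, 932 with several gene symbols and 9160 lacking a symbol did not enter, and 34945 remained for 18193 genes. A gene with several probe sets was read from the one whose mean was highest. No filter on low values was set and no array was left out.

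Somatic minus pluripotent differences were fitted with limma 3.58.1 (lmFit, eBayes) in R 4.3.3, with 1 mean per class and no covariates. Adjusted p values are Benjamini-Hochberg values, two-sided, with a threshold of 0.05. The spread in this fit holds both the difference between TTF and VM and the differences among the 3 kinds of pluripotent cell, which were treated as replicates of their class. A gene was apart with a limma call and a gap of at least 1. The fit was run before use on simulated data with normal noise and known differences. The simulated data held no difference between TTF and VM or among the kinds of pluripotent cell. That run cannot show how the test behaves with such differences. The number of arrays limits the precision.

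Named genes are the 15 with the largest gap in each direction, up to 4 members per list and direction with the largest gap and up to 2 members not apart with the largest difference, the 3 just inside and just outside the threshold, and 5 checks (Pou5f1, Nanog, Sox2, Xist, Eif2s3y). Others are said to be chosen later. The members and the 39 lists were chosen with earlier results of these data known. Promoter windows of 250 bases and chromosomes came from RefSeq tables matched by symbol or Entrez identifier, with windows for 14452 genes (79.4%). All 14 motifs searched are given in the report. Alternatives covered the unit of replication, the model, a random block, array weights, limma's treat, the prior, the choice of probe set, a filter, scaling, the gap, each array left out, each kind of pluripotent cell alone and, added later, the source cell as a block.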

Additional observations from a re-analysis of the deposited data

Results flagged for a closer look

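In the 9 pluripotent arrays, 69 values were checked for an array far from the other 8, and 6 had one. The values were the 30 leading genes and the mean levels of the 39 lists. Chance gives about 1 in 20 where the 9 arrays are exchangeable. These arrays are of 3 kinds and the 30 genes were chosen by their gap, so the 6 cannot be set against that rate. Emilin2 read 5.32 in ESC replicate 3 while the other 8 arrays were at 4.53 to 4.85. Nr0b1 read 10.58 in TiPSC replicate 3, below the others, and Cdh1 read 11.61 in the same array, above the others. The mean level of the DNA methylation list was 9.37 in ESC replicate 3, below 9.53 to 9.68 elsewhere. That of the mesenchymal list was 5.80 in TiPSC replicate 1, above 5.64 to 5.71, and that of the imprinted list was 7.69 in ESC replicate 1, above 7.13 to 7.36.

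The list medians of the source cells lay on opposite sides of the pluripotent range for 3 lists, and the difference between them was not tested, since each is 1 array. For G1 cyclins, inhibitors and p53 targets, the median of TTF was above and that of VM below every pluripotent array (VM minus TTF -0.82). For mitochondrial genes VM was above and TTF below (2.09), and likewise for endothelial markers (5.10). By the mean level of the list, VM lay within the pluripotent range for the G1 list (8.45, in 8.24 to 8.51) and TTF for the mitochondrial list (9.99, in 9.89 to 10.04).

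Among the 9160 probe sets without a gene symbol, which the comparison of genes does not use, 132 (1.44%) were apart with the pluripotent cells higher and 92 (1%) with the source cells higher. These counts use the gap of at least 1 alone, without a limma call. The largest gap was 7.69 among the former and 4.58 among the latter.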

How the results depend on the processing

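The main counts were 3659 genes higher and 4496 lower in the source cells by limma, and 920 and 1343 apart. The limma counts were 1593 and 2708 over the means of the 5 kinds of cell, 1235 and 1519 with array weights per class, 1001 and 1339 in a test against 1 log2 unit, and 6851 and 7630 for every probe set on its own, where 1589 and 2056 were apart. Without the genes below the median level, limma called 2177 and 3766, and 554 and 1277 were apart. The mean of all probe sets gave 743 and 1087 genes apart, of which 688 and 1035 were in the main sets. Array weights per class gave 784 and 1060 apart, and the means of the 5 kinds of cell 840 and 1308. The test against 1 log2 unit gave 888 and 1254. A gap of 0 gave 2888 and 4074 genes apart and a gap of 2 gave 335 and 413. Against ESC alone limma called 1398 and 2254, against TiPSC alone 1660 and 2940, and against ViPSC alone 1961 higher. Leaving out 1 array gave 3337 to 4083 and 4278 to 4860 by limma, and 922 to 2064 and 1348 to 2282 apart. The upper ends came without a source cell, with 2045 and 2282 apart without TTF and 2064 and 1946 without VM, where the remaining source array was assumed to vary like the others. Without 1 pluripotent array they were 922 to 955 and 1348 to 1396. Eif2s3y turned to -0.42 against ViPSC alone, Thy1 to -0.66 without TTF (6.15 without VM) and Myh6 to -1.22 without VM (10.8 without TTF). List medians kept their sign for 30 of 39 lists in all alternatives run. No paired analysis was possible because the labels give TTF and VM no replicate number. With the source cell as a block (VM with ViPSC, TTF with TiPSC, ESC left out), chosen after seeing the data, limma called 3269 and 4609 genes, and 1017 and 1531 were apart, among them all of the 920 and 1343. The limits are 1 array per source cell, no detection calls and a scale compressed near background.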

Other observations

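Gene families grouped by the start of their symbol, looked at after the values were seen, added groups that the lists do not cover. The ones given were picked by their counts from 162 families of at least 12 members, and over all genes 7.38% were apart with the pluripotent cells higher and 5.06% with the source cells higher. Of 19 nucleoporin genes (Nup), which build the nuclear pore, 12 were apart with the pluripotent cells higher and none with the source cells higher. Nup210, a membrane nucleoporin, read 7.93 to 8.52 in the pluripotent arrays, 6.20 in VM and 3.88 in TTF. Of 35 DEAD-box RNA helicase genes (Ddx), 12 were apart with the pluripotent cells higher, as were 7 of 25 RNA polymerase subunit genes (Polr) and 6 of 16 Rad genes of DNA repair. Among 37 kinesin genes (Kif), 10 were apart with the pluripotent cells higher and 3 with the source cells higher. Of 13 calcium channel genes (Cacna), 3 were apart, all with the source cells higher.

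Exo1, Brca1 and Fancd2 were picked after their values were seen and are given as single genes, not as a count of DNA repair genes. Exo1, an exonuclease of mismatch repair and recombination, read 9.15 to 9.60 in the pluripotent arrays against 6.10 in TTF and 4.64 in VM, a difference of -4.01 ± 0.27 (SE, adjusted p = 4.47e-07, limma). Brca1 read 9.57 to 10.50 against 7.04 and 6.41, and Fancd2, of the Fanconi anaemia pathway, 7.80 to 8.54 against 5.52 and 4.60. Mylpf, a light chain of fast skeletal muscle, was the only one of 14 skeletal muscle markers apart, and it was higher in the pluripotent arrays, with a median of 11.33 and a highest level of 11.67 against 5.52 in TTF and 5.96 in VM. Laptm5, a lysosomal protein of blood cells, read 8.21 to 9.50 against 5.89 and 5.29, with an adjusted p of 0.0528 when arrays were weighted per class.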
